A study of Homo sapiens with 7 samples.

Results

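The aminoacyl-tRNA synthetase genes are described here by their mRNA levels and by the transcription start sites (TSSs) called at them. The 37 nuclear genes of the family were taken by symbol from a deposited expression table of 26175 genes, and all 37 were found. Of these, 21 encode cytosolic enzymes and 16 encode mitochondrial ones, whose names end in 2. TARSL2 also ends in 2, but its product is a cytosolic threonyl-tRNA synthetase, and it was counted with the cytosolic genes. GARS and KARS each encode the cytosolic and the mitochondrial enzyme of their amino acid and were kept with the cytosolic genes as well.

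An aminoacyl-tRNA synthetase joins one amino acid to the tRNAs that read its codons, and so sets the meaning of the genetic code in every round of translation. Cytosolic and mitochondrial translation mostly use separate enzymes, although both sets are encoded in the nucleus. Several cytosolic enzymes are held together in a multisynthetase complex on 3 scaffold proteins. When amino acids run short, uncharged tRNA activates the kinase GCN2, the transcription factor ATF4 accumulates, and ATF4 binds amino acid response elements at genes of amino acid uptake, synthesis and tRNA charging.

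The labels name the cells T-47D, a human luminal breast cancer line. In the paper they are T47D/A1-2 cells, a T47D derivative that overexpresses the rat glucocorticoid receptor and holds an integrated reporter gene driven by a mouse mammary tumor virus promoter. All cells were grown in serum-containing medium and then kept in charcoal-stripped serum, with no other treatment or genotype to compare. TSSs come from replicate 1 of Start-seq, which sequences short capped nascent RNAs from their 5’ ends, and mRNA levels come from 3 RNA-seq replicates that were merged into 1 value per gene. No value therefore carries an error between replicates, the depth is unknown for both assays, and every comparison below is a description without a test.

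Luminal markers were abundant, with FPKM values (sequenced fragments scaled by transcript length and library size) of 1142 for KRT8, 936 for KRT19, 360 for GATA3 and 44.1 for ESR1. The estrogen-induced TFF1 was at 1.90 FPKM. Of the markers of other cell types, PTPRC of leukocytes was at 0.0208 FPKM and PECAM1 of endothelium at 0.00291 FPKM, with ALB of hepatocytes at 1.49 FPKM and COL1A1 of fibroblasts at 8.82 FPKM.

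The promoter sequence shown first is the amino acid response element, since its core was found at called TSSs of cytosolic but not of mitochondrial genes. The core was searched as TGATGNAA on either strand, from 250 nt upstream to 50 nt downstream of each called gene TSS. It was present at CARS, GARS, IARS, MARS and NARS, at no called TSS of the mitochondrial genes, and at 1.35% of all gene TSSs. An annotated start of the mitochondrial YARS2, far from its called TSS, does have the core, as described below. The following stretches run from 60 nt upstream of the called gene TSS through the first 5 transcribed bases, on the strand of the gene, in hg19. Capitals mark the core, which reads as its reverse complement at every gene but NARS.
CARS, chr11:3078638-3078702, minus strand: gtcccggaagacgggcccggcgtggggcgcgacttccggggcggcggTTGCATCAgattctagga
GARS, chr7:30634434-30634498, plus strand: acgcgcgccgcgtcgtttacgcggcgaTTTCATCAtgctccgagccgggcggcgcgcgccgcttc
IARS, chr9:95055958-95056022, minus strand: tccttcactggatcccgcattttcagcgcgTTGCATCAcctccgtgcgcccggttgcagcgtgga
MARS, chr12:57881791-57881855, plus strand: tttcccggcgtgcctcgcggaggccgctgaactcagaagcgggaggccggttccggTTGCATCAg
NARS, chr18:55289002-55289066, minus strand: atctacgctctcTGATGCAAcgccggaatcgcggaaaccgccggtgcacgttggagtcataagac

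All 37 synthetase mRNAs were detected at 1 FPKM or more, a level reached by 46.9% of all genes in the table. A level of 10 FPKM or more was reached by 32 of the 37, compared with 28.1% of all genes. The median over the family was 37.7 FPKM, whereas it was 14.4 over all 12271 genes at 1 FPKM or more and 16.7 over the 9673 genes of the table with a called gene TSS. The 5 genes under 10 FPKM were TARSL2 and the mitochondrial AARS2, WARS2, PARS2 and MARS2.

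Cytosolic synthetases had a median of 68.9 FPKM (quartiles 40.0 and 87.5, n = 21) and mitochondrial ones a median of 17.3 FPKM (quartiles 10.2 and 27.6, n = 16). The ratio of the medians was 3.99, or 1.99 on the log2 scale with a pseudocount of 0.1. The sets overlapped in range, from 4.39 to 138 FPKM for the cytosolic genes and from 3.22 to 153 FPKM for the mitochondrial ones. Nevertheless, 20 of 21 cytosolic genes lay above the mitochondrial median, and 1 of 16 mitochondrial genes lay above the cytosolic median. Most of the mitochondrial genes still matched or passed the typical expressed gene, since 10 of 16 were above 14.4 FPKM, as were 20 of 21 cytosolic genes.

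**Figure D1:**
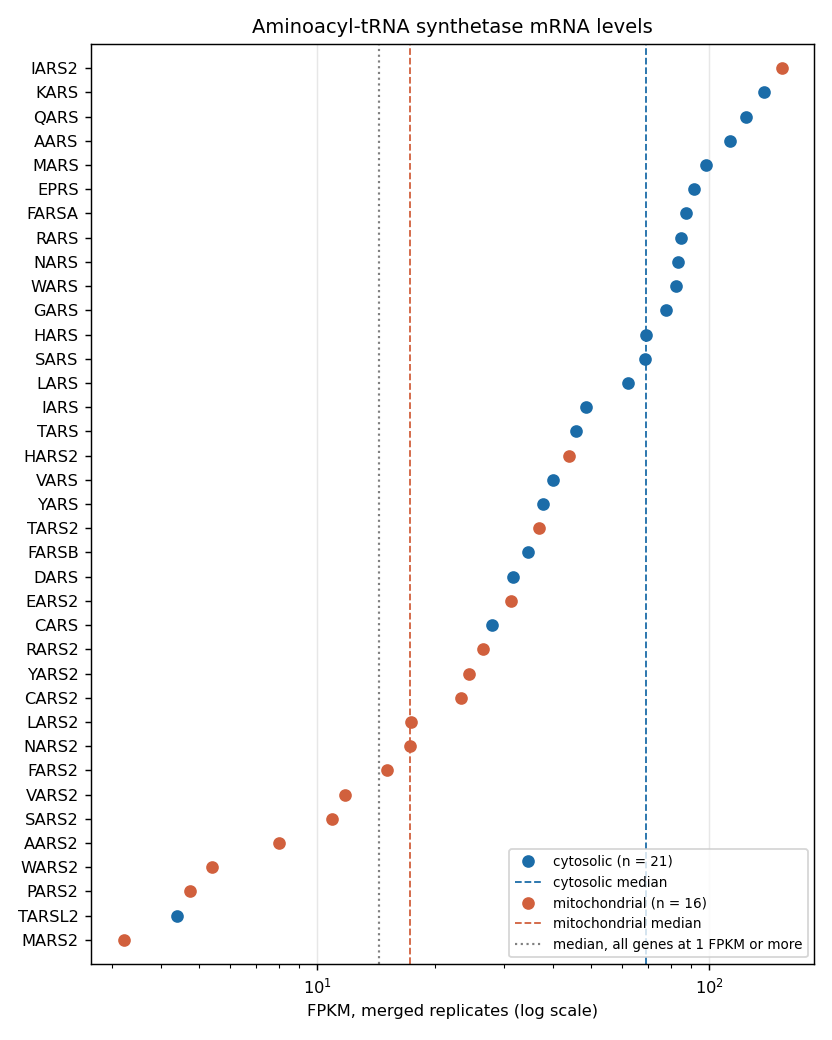
FPKM of the 37 synthetase genes on a log axis, 1 point per gene, with cytosolic genes in blue and mitochondrial genes in orange. Dashed lines mark the medians of 68.9 and 17.3 FPKM, the dotted line marks the median of 14.4 FPKM over all genes at 1 FPKM or more, and IARS2 stands apart from the other mitochondrial genes at 153 FPKM.

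The highest cytosolic value was that of KARS, the lysyl-tRNA synthetase of both compartments, at 138 FPKM. QARS, which charges glutamine, followed at 124 FPKM and AARS, which charges alanine, at 113 FPKM. The lowest cytosolic values were 31.7 FPKM for DARS (aspartate), 28.0 FPKM for CARS (cysteine) and 4.39 FPKM for TARSL2. TARSL2 thus lay far below the next cytosolic gene, and its paralog TARS, the main cytosolic threonyl-tRNA synthetase, was at 45.8 FPKM.

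Among the mitochondrial genes, IARS2, the isoleucyl-tRNA synthetase of mitochondria, had the highest value of the whole family. HARS2 (histidine) was next among them at 43.9 FPKM and then TARS2 (threonine) at 36.9 FPKM. The lowest mitochondrial values were 5.41 FPKM for WARS2 (tryptophan), 4.74 FPKM for PARS2 (proline) and 3.22 FPKM for MARS2 (methionine). Without IARS2 the log2 ratio of the medians was still 1.99.

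The 8 cytosolic genes whose enzymes belong to the multisynthetase complex (DARS, EPRS, IARS, KARS, LARS, MARS, QARS and RARS) had a median of 88.0 FPKM and ranged from 31.7 to 138 FPKM. The 13 other cytosolic genes had a median of 68.7 FPKM and ranged from 4.39 to 113 FPKM, so the sets overlapped over most of their range. The scaffold genes of the complex were lower than most of its enzymes, at 31.6 FPKM for AIMP1, 40.9 FPKM for AIMP2 and 49.1 FPKM for EEF1E1. The structural class of the enzyme, which is fixed by the fold of its catalytic domain, separated the levels less than the compartment did. Class I and class II genes had medians of 62.2 (n = 9) and 68.9 FPKM (n = 11) among the cytosolic genes, and 23.2 (n = 9) and 15.1 FPKM (n = 7) among the mitochondrial genes. EPRS, which joins an enzyme of each class in 1 protein, was left out of these medians.

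The compartments were next compared within each amino acid. In 16 of 17 pairs the cytosolic gene had the higher FPKM, with a median ratio of 3.40 between the cytosolic and the mitochondrial gene. The ratio was 2 or more in 12 pairs and 5 or more in 6. It was widest for methionine, at 30.5, with MARS at 98.3 FPKM and MARS2 at 3.22 FPKM. EPRS, which charges both glutamate and proline in the cytosol, was at 91.5 FPKM, 19.3 times PARS2 and 2.93 times EARS2, the mitochondrial glutamate enzyme (31.2 FPKM). WARS (82.2 FPKM) was 15.2 times WARS2, and AARS was 14.1 times AARS2 (7.99 FPKM).

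Ratios were intermediate for serine (6.31), asparagine (4.82), leucine (3.59), valine (3.40) and arginine (3.20). The cytosolic phenylalanyl-tRNA synthetase is built from the products of FARSA and FARSB, and their mRNAs were unequal, at 87.5 and 34.5 FPKM. Both were above FARS2 (15.1 FPKM), the single-chain mitochondrial enzyme, by 5.81 and 2.29 times. Histidine and tyrosine had ratios of 1.57 and 1.54, and the smallest differences were those of threonine (1.24) and cysteine (1.21). If TARSL2 takes the place of TARS, the threonine pair is reversed and the cytosolic gene is higher in 15 of 17 pairs.

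Isoleucine was the exception. IARS, the cytosolic enzyme, was at 48.6 FPKM and IARS2 at 153 FPKM, so that the mitochondrial gene was 3.15-fold higher. The deposited loci of 15 of the 37 genes also hold another gene, and its part in the level of each gene was not tested. EPRS and IARS2 lie in one locus, HARS and HARS2 in another, and MARS shares its locus with DDIT3, so the ratios of these pairs carry the same limit. A further limit applies to VARS (40.0 FPKM) and VARS2 (11.8 FPKM), whose deposited loci are on alternative haplotype contigs of chromosome 6. Without that pair of genes the log2 ratio of the compartment medians was 2.07. Among the members alone in their deposited locus (14 cytosolic and 8 mitochondrial genes) that ratio was 2.06.

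**Figure D2:**
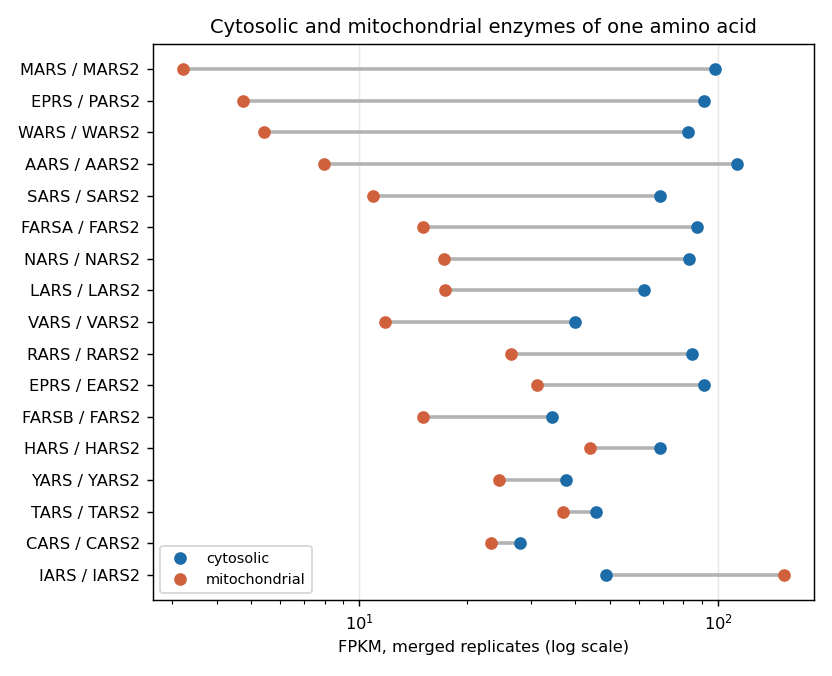
FPKM of the cytosolic gene (blue) and the mitochondrial gene (orange) in each of 17 amino acid pairs, on a log axis, ordered by their ratio. The blue point lies to the right in 16 pairs, and the order is inverted only for IARS and IARS2.

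Genes that act beside the synthetases were taken from lists. The mitochondrion charges glutamine indirectly, through an amidotransferase, and 2 of its subunit genes, PET112 (GATB) and GATC, were at 20.6 and 20.9 FPKM, with the catalytic subunit gene QRSL1 at 7.29 FPKM. MTFMT, which formylates the methionine of the mitochondrial initiator tRNA after MARS2 has charged it, was at 4.46 FPKM, a low level like that of MARS2. PSTK and SEPSECS, which make selenocysteine on its tRNA from serine attached by SARS, were at 1.73 and 2.94 FPKM. The genes that clear mischarged or stalled tRNAs, PTRH2, DTD1 and AARSD1, were at 51.3, 51.7 and 20.3 FPKM. The elongation factor genes, whose products receive the charged tRNA or exchange the nucleotide of the factor that does, ranged from 23.6 FPKM for EEF1B2 to 231 FPKM for the mitochondrial TUFM, with a median of 127 FPKM over 6 genes.

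Of the 12 amino acid response genes, ATF4 itself was at 133 FPKM and EIF2AK4, which encodes GCN2, at 24.8 FPKM. The amino acid transporter subunits SLC3A2 and SLC7A5 were at 104 and 97.6 FPKM, the serine synthesis gene PHGDH at 83.2 FPKM and the feedback inhibitor TRIB3 at 69.8 FPKM. DDIT3 (19.1 FPKM), ASNS (16.3 FPKM), PSAT1 (12.6 FPKM) and SESN2 (12.2 FPKM) were lower. The ATF4 targets CHAC1 and SLC7A11 were at 0.952 and 0.365 FPKM and were the only genes of the list under 1 FPKM.

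A gene TSS was called within 1000 nt of an annotated start of the gene at 34 of the 37 synthetase genes, each with a single call. These were 19 of 21 cytosolic and 15 of 16 mitochondrial genes. With the window set around the deposited locus instead, 33 genes (18 of them cytosolic) had their own call, since the locus of VARS is on a haplotype contig and its call is on chromosome 6. Among all protein-coding genes of the table, a call was made at 80.0% of those at 1 FPKM or more and at 86.8% of those at 10 FPKM or more. The 3 genes without a call were EPRS (91.5 FPKM), TARS (45.8 FPKM) and VARS2 (11.8 FPKM), and their absence from the list says only that no position passed the authors' rules in this library.

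The called TSS coincided with an annotated start at 9 of the 34 genes, compared with 21.8% of all gene TSSs assigned to a gene. It lay within 10 nt of one at 18 genes, compared with 50.4% of all gene TSSs. By the nearest of all annotated starts, cytosolic genes were called closer, with 13 of 19 calls within 10 nt and a median distance of 2 nt. Of the mitochondrial calls, 5 of 15 were within 10 nt, at a median of 22 nt. The median over all gene TSSs was 10 nt. The contrast between the compartments depends on the start chosen. From the start of the canonical transcript, fewer calls of both compartments were within 10 nt, and the contrast was smaller. The call of WARS was then at -962 nt instead of 0 nt, and that of the mitochondrial LARS2 at 54 nt instead of 11 nt. The farthest calls were those of YARS2, 610 nt downstream of the nearest annotated start, FARS2, 237 nt downstream, and VARS, HARS and YARS, which lay 218, 185 and 152 nt upstream.

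Antisense initiation was next examined at the 34 called TSSs. An upstream antisense TSS (uaTSS), searched by the authors up to 1000 nt upstream on the opposite strand, was called at 20 of them (58.8%), compared with 53.1% of all 10391 gene TSSs. By compartment, uaTSSs were called at 10 of 19 cytosolic genes (52.6%, exact Clopper-Pearson 95% interval 28.9% to 75.6%) and at 10 of 15 mitochondrial genes (66.7%, 38.4% to 88.2%). A downstream antisense TSS (daTSS), searched up to 2000 nt downstream, was called at 7 of 34 genes (20.6%), compared with 28.4% of all gene TSSs. These were 5 cytosolic genes (26.3%, interval 9.15% to 51.2%) and 2 mitochondrial genes (13.3%, interval 1.66% to 40.5%). The intervals of the compartments overlap in both cases and include the values over all gene TSSs, which is not a test of a difference. They treat the genes as independent draws, although HARS and HARS2 share a promoter region. The calls come from 1 library only, and the intervals carry no error between libraries.

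Both kinds of antisense TSS were called at CARS, SARS and VARS, or 3 of 34 genes, compared with 17.5% of all gene TSSs. Only a uaTSS was found at 17 genes (50%, compared with 35.6% of all gene TSSs). Only a daTSS was found at AARS, FARSB, AARS2 and IARS2 (11.8%, compared with 11.0% of all gene TSSs). Neither was called at 10 genes (29.4%, compared with 35.9% of all gene TSSs). Because the compartments differ in level and in their shares of these classes, mRNA levels are given within each. Median levels of cytosolic genes were 77.8 FPKM for the 7 with only a uaTSS, 40.0 FPKM for the 3 with both, 82.2 FPKM for the 7 with neither and 73.7 FPKM for the 2 with only a daTSS. Those of mitochondrial genes were 20.3 FPKM for the 10 with only a uaTSS and 15.1 FPKM for the 3 with neither, and the levels of the classes overlapped in both compartments. Over all gene TSSs the medians were 18.9 FPKM with only a uaTSS, 21.5 FPKM with both, 14.0 FPKM with neither and 13.3 FPKM with only a daTSS. IARS2, the most abundant synthetase mRNA, and AARS2, one of the least abundant, were thus in the same class.

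**Figure D3:**
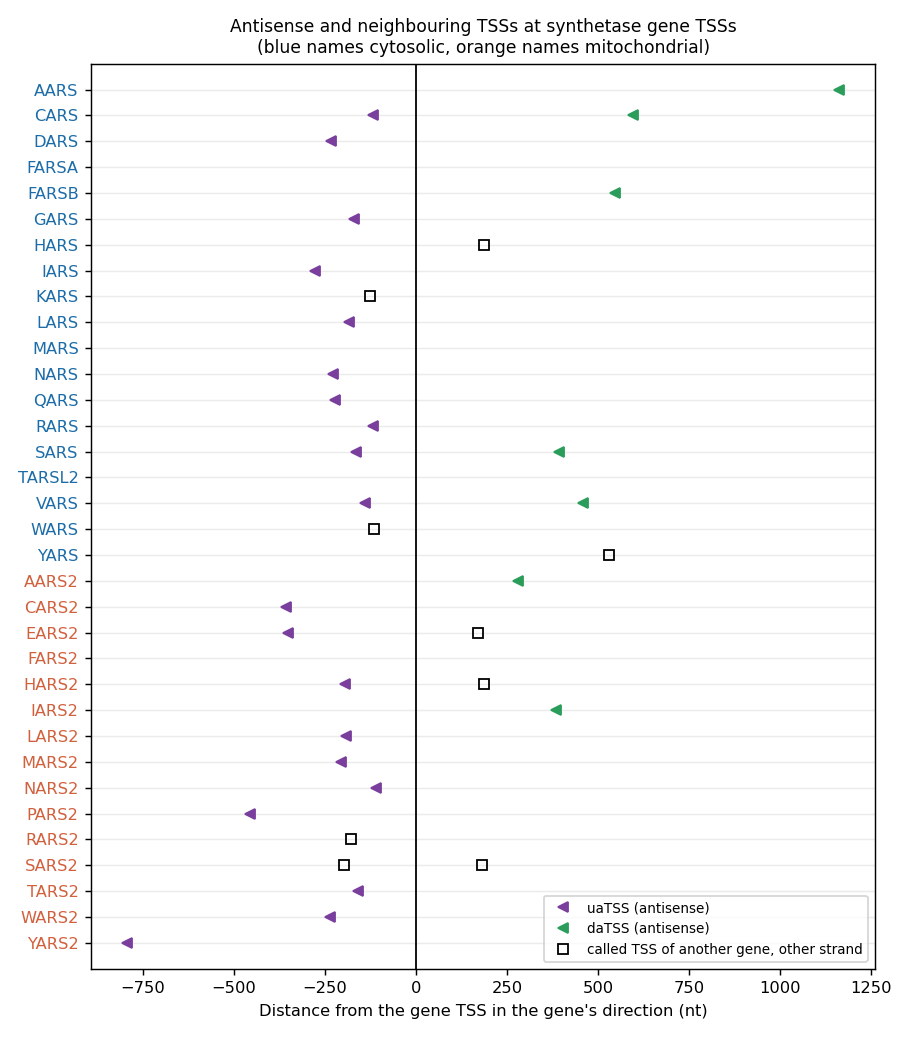
Positions of the uaTSS (purple), the daTSS (green) and any called TSS of another gene on the other strand (open squares), in nt from the called gene TSS in the direction of the gene, for the 34 synthetase genes with a call. Cytosolic names are blue and mitochondrial names orange. The 20 uaTSSs lie 109 to 794 nt upstream and the 7 daTSSs 281 to 1162 nt downstream.

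The 20 uaTSSs lay at a median of 200 nt upstream of the gene TSS, the same as the median of 200 nt over all uaTSSs. Distances ranged from 119 nt (CARS and RARS) to 278 nt (IARS) at the cytosolic genes, with a median of 177 nt. At the mitochondrial genes they ranged from 109 nt (NARS2) to 794 nt (YARS2), with a median of 220 nt. The 794 nt of YARS2 are measured from a call that lies 610 nt inside the annotated gene. Counted from the annotated start instead, its uaTSS was 184 nt upstream, close to the median. PARS2 (456 nt), CARS2 (358 nt) and EARS2 (352 nt) were the next most distant.

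All 7 daTSSs lay in intron 1 of the canonical transcript of the gene, as did 63.9% of all daTSSs with an assigned gene. Their distances from the gene TSS were 281 nt at AARS2, 385 nt at IARS2, 393 nt at SARS, 458 nt at VARS, 546 nt at FARSB, 597 nt at CARS and 1162 nt at AARS. The median was 458 nt, compared with 507 nt over all daTSSs. In hg19 the daTSS of IARS2 is at position 220267923 of chromosome 1 and its gene TSS at 220267538.

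The sequences around 4 of these antisense starts are shown to compare their initiation dinucleotides, since a pyrimidine followed by a purine is the usual context of a start. Each stretch of 26 nt is written on the antisense strand in hg19, and capitals mark the base before the start and the start itself.
CARS, chr11:3078030-3078055, plus strand: caggcaccggctggGGaaaggctgtt
FARSB, chr2:223520231-223520256, plus strand: cgtgtgcacagctcTAgtcctaagct
IARS2, chr1:220267913-220267938, minus strand: cccccgcccacccgCAccggcgtgga
SARS, chr1:109756925-109756950, minus strand: tccgcccgggtggaGGagaaagtggg

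A pyrimidine followed by a purine was present at 3 of the 7 daTSSs, namely FARSB, IARS2 and AARS2, and at 66.9% of all daTSSs. CARS and SARS had GG, and AARS and VARS had CT. Among gene TSSs, 25 of the 34 gene TSSs of the family (73.5%) had the pyrimidine-purine dinucleotide, as did 66.1% of all gene TSSs. Each of the 4 stretches shown occurs at 1 place in the genome.

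Several synthetase genes share their promoter region with a gene on the other strand. Such a gene TSS within 1000 nt upstream (a divergent pair) was called at 4 of 34 genes, or 11.8%, compared with 11.5% of all gene TSSs. WARS was paired with WDR25 (8.11 FPKM) at 115 nt, KARS with the telomere protein gene TERF2IP (51.0 FPKM) at 126 nt, RARS2 with the origin recognition gene ORC3 (24.3 FPKM) at 179 nt, and SARS2 with the mitochondrial ribosomal protein gene MRPS12 (54.4 FPKM) at 198 nt. None of the 4 had a uaTSS or a daTSS, while over all divergent gene TSSs 16.2% had a uaTSS and 7.10% a daTSS. Among the 30 other synthetase genes a uaTSS was called at 66.7%, compared with 57.9% of all gene TSSs that are not divergent. The division rests on called TSSs. The 30 genes include HARS2 and EARS2, whose uaTSSs lie 0 and 26 nt from an annotated start of a neighbouring gene.

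At 5 of 34 genes (14.7%) a TSS of an opposite-strand gene was called up to 1000 nt downstream, compared with 2.93% of all gene TSSs. The called TSSs then face each other, and the regions transcribed from them overlap. This layout depends on the start chosen. From the canonical starts of the synthetase genes and the nearest annotated starts of the other genes, each pair named next is divergent instead. The calls of HARS and YARS were at -352 and -825 nt from their canonical starts. HARS and HARS2, the cytosolic and mitochondrial histidine enzymes, faced each other with called TSSs 186 nt apart, and each counts once. EARS2 faced UBFD1 (57.0 FPKM) at 171 nt, SARS2 faced a second call of MRPS12 at 182 nt, and YARS faced S100PBP (8.65 FPKM) at 530 nt. None of the 5 had a daTSS. The authors' rules leave out a daTSS close to an annotated start on its own strand, and 0 of all 304 facing gene TSSs carry one.

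At some of these genes the uaTSS of one gene coincided with an annotated start of the other. The HARS call at position 140071307 of chromosome 5 lies 185 nt upstream of the nearest annotated HARS start. The uaTSS of HARS2, at 140070926 and 195 nt upstream of the HARS2 call, lies 0 nt from another annotated start of HARS. Likewise, the UBFD1 call lies 549 nt upstream of the annotated UBFD1 start, and the uaTSS of EARS2 lies 26 nt from that annotated start. The MRPS12 call that faces SARS2 lies 380 nt upstream of the annotated MRPS12 start, where the divergent MRPS12 call already counted lies. A uaTSS within 50 nt of an annotated start of the facing gene was present at 80 of the 155 facing gene TSSs that have a uaTSS (51.6%).

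More broadly, 5 of the 20 synthetase uaTSSs lay within 250 nt of an annotated start on their own strand, compared with 25.5% of all uaTSSs. Besides HARS2 and EARS2, these were CARS, whose uaTSS was 7 nt from the start of a long noncoding RNA gene, GARS, at 32 nt from GARS1-DT, and WARS2, at 80 nt from WARS2-AS1. The uaTSSs of the other 15 genes had no annotated start within that distance.

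The response element core at CARS, GARS, IARS, MARS and NARS corresponds to 5 of 19 cytosolic genes (26.3%, exact interval 9.15% to 51.2%) and 0 of 15 mitochondrial genes (upper bound of the exact interval 21.8%). The same pattern was present at 1.35% of all gene TSSs. In 4 of the 5 genes the variable base of the core was C (TGATGCAA), which 0.395% of all gene TSSs have, and GARS has A in its place on the strand that reads TGATGNAA. In these sequences the core spans bases -13 to -6 at CARS, -33 to -26 at GARS, -30 to -23 at IARS, -4 to +4 at MARS and -48 to -41 at NARS, counting the called TSS as +1. All 5 thus fall within 50 nt of the TSS, where 0.356% of all gene TSSs have a core, a window chosen after the positions were seen. At MARS the core spans the start site itself.

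In the wider window from 500 nt upstream to 250 nt downstream, the core was present at 6 of 19 cytosolic genes, at 0 of 15 mitochondrial genes and at 4.05% of all gene TSSs. The added gene is AARS, whose core spans bases -296 to -289. It is shown with 15 bases on each side, in hg19 and on the strand of the gene.
AARS, chr16:70323574-70323611, minus strand: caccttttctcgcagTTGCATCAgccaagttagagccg

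The mRNA levels of the 5 genes with a core ranged from 28.0 FPKM (CARS) to 98.3 FPKM (MARS), with a median of 77.8 FPKM. The 14 called cytosolic genes without one had a median of 68.8 FPKM and ranged from 4.39 to 138 FPKM, so the levels overlapped throughout. Of the 5 genes, 4 had a uaTSS and 1 (CARS) a daTSS, and MARS had neither. The presence of these letters does not show that ATF4 or another factor was bound there in these cells.

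The pattern was also counted in RefSeq promoters of GRCh38.p14, 250 nt upstream to 50 nt downstream of each annotated start, which held 30 of the 37 genes. The core was present at 7 of 16 cytosolic genes, namely AARS, CARS, GARS, IARS, MARS, NARS and TARS, and at 1 of 14 mitochondrial genes, YARS2. TGATGCAA was present at 6 of the cytosolic genes and at none of the mitochondrial ones. Counted by promoter, 8 of 39 synthetase promoters held TGATGNAA (20.5%) and 6 held TGATGCAA (15.4%), compared with 3.62% and 0.866% of all 35116 RefSeq promoters. TARS carried the core in 1 of its 2 RefSeq promoters, although no gene TSS was called there. The absence of a core at mitochondrial genes held for the called TSSs but not for the annotated start of YARS2, whose call lay 610 nt downstream.

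Among the amino acid response genes, the core was present from 250 nt upstream to 50 nt downstream of the TSS of ASNS, SLC7A11 and TRIB3, or 3 of 12 genes. These 12 genes have 14 called gene TSSs, and the share over all gene TSSs was 1.35%. TRIB3 and SLC7A11 held more than one copy. Of the other lists, EEF1D had a core, and the scaffold, amidotransferase and formyltransferase, selenocysteine and deacylation lists had 0. ASNS (16.3 FPKM) and SLC7A11 (0.365 FPKM) were below every synthetase gene with the core. TRIB3 (69.8 FPKM) lay within the range of those genes, and EEF1D (171 FPKM) lay above all of them.

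Other promoter sequences were counted in the same way. A GC box, searched as GGGCGG on either strand in the 50 nt upstream, was present at 9 of 19 cytosolic genes (47.4%) and 3 of 15 mitochondrial genes (20.0%), compared with 27.4% of all gene TSSs. The mitochondrial genes with a GC box were CARS2, IARS2 and SARS2. A TATA-like sequence (TATAW, where W is A or T, starting from -35 to -24) was present only at RARS2 among the 34, and at 312 of all 10391 gene TSSs. A start at C followed by 4 pyrimidines, the context of mRNAs under growth-dependent translational control, was present only at QARS among them, and at 3.39% of all gene TSSs. Median GC content in the 100 nt around the TSS was 68% at cytosolic genes, 63% at mitochondrial genes and 68% at all gene TSSs.

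A pair of further patterns was chosen after the sequences had been seen. CCGGAAGT, a site of ETS factors, was present from 250 nt upstream to 50 nt downstream at 6 of 34 genes (CARS, EARS2, HARS2, NARS, PARS2 and WARS) and at 8.76% of all gene TSSs. The palindromic consensus of NRF1, a regulator of nuclear genes for mitochondrial proteins, was present at 5 of 34 genes (FARSB, IARS2, MARS2, PARS2 and SARS) and at 11.1% of all gene TSSs. Both were found in each compartment.

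**Figure D4:**
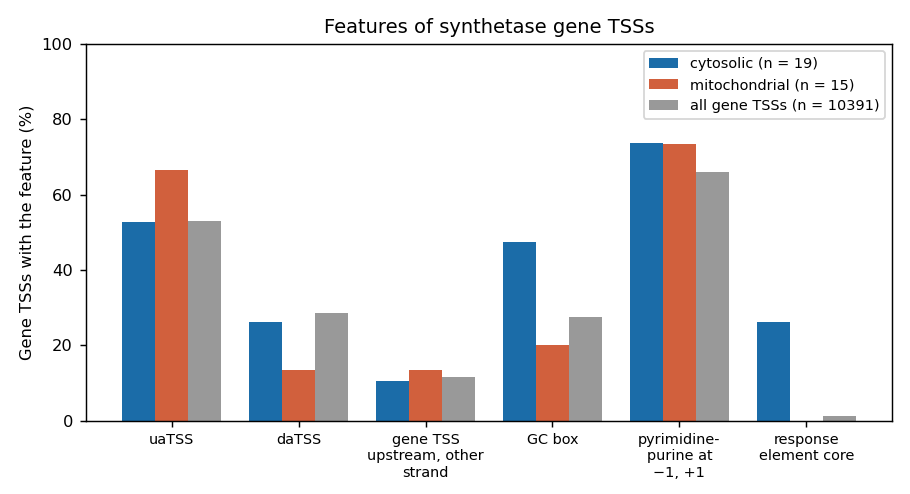
Percent of called gene TSSs with each feature, for cytosolic (blue, n = 19) and mitochondrial synthetase genes (orange, n = 15) and for all 10391 gene TSSs (grey); bars have no error because the calls come from 1 library. The response element core stands at 26.3% of cytosolic genes, at 0 mitochondrial genes and at 1.35% of all gene TSSs.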

How the data were processed

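Start-seq TSS calls (replicate 1) and RNA-seq values (3 replicates) of the 7 samples were used. MNase-seq, FAIRE-seq and Start-seq replicate 2 were not used here. The authors trimmed Start-seq reads with cutadapt 1.2.1, aligned them to hg19 with Bowtie 0.12.8 and called TSSs at single nucleotides from 5’ ends. The deposited calls have a score of 0 throughout and no read counts, so depth is unknown. For RNA-seq, the authors used TopHat2 2.0.4, removed duplicates with Picard 1.118, merged the replicates and deposited 1 FPKM column from Cufflinks 2.2.1. The table has 0 further per-sample columns. Without a replicate error, no test was run, and shares have exact Clopper-Pearson intervals at 95%. These intervals treat genes as independent draws and carry no error between libraries. For sequence patterns, which are fixed in the genome, they reflect only the small number of genes.

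Each gene TSS was assigned to the nearest protein-coding start within 1000 nt on its strand (GENCODE 44 lifted to GRCh37, the sequence of hg19), and antisense calls were joined by identifier. Symbols of the table were matched to current ones. Sequences came from GRCh37, and RefSeq promoters from GRCh38.p14 were used for pattern counts only. Sequences are printed for 4 of the 7 daTSSs. The assignment and pattern search were tested on simulated data. Python 3.11.15, numpy 2.4.6, pandas 2.3.3, scipy 1.17.1, pysam 0.24.0 and matplotlib 3.10.9 were used. Log2 ratios used a pseudocount of 0.1.

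The members, gene lists and patterns were chosen with earlier results of these data known. Every member could be named, with values for the 3 highest and 3 lowest of each compartment, all amino acid pairs, and members with unusual TSS calls. The alternatives changed the pseudocount, filters on FPKM, the compartment of TARSL2, the inclusion of genes such as GARS and KARS, the windows, neighbouring TSSs and the motif.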

Additional observations from a re-analysis of the deposited data

How the results depend on the processing

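Over 11 results, 47 alternatives were run, of which 41 were planned and 6 were added after the data were seen. None of the 47 reversed a direction, and 46 left the value within its interval or within 1.5-fold. Some of the 47 could not change a value, since every called member had a single gene TSS and every member passed the FPKM filter. The intervals of the shares are wide, so a share that stayed within its interval can still have changed. The log2 ratio of the compartment medians was between 1.93, with a pseudocount of 1, and 2.08, with TARSL2 counted with the names ending in 2. The value that moved was the share of mitochondrial genes with a uaTSS, which was 88.9% (8 of 9) among gene TSSs without another gene TSS within 5000 nt. The same restriction gave 71.4% (10 of 14) for the cytosolic genes, and the cause was not tested. No paired analysis was possible because the replicates were merged into 1 column and the TSS calls come from 1 library. Leaving out a replicate could not be run for the same reason. FPKM values resting on few reads cannot be told from others, and a gene without a called TSS may have had too few reads to pass the authors' minimum.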
